A study of Homo sapiens with 6 samples.

Results

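The tetraspanin genes of HEL cells were examined in RNA-seq data from cells carrying a control hairpin (shCtrl, 3 libraries) or hairpin RNA against the surface receptor TMIGD2 (shTMIGD2, 3 libraries). HEL is a human erythroleukemia line, and all 6 libraries were made from poly(A) RNA of this 1 line grown in RPMI with serum, so the labels of the groups differ only in the hairpin treatment. The labels do not say which of the study's hairpins against TMIGD2 the libraries carry. The members were chosen by name: every row whose gene name is TSPAN followed by a number, or CD37, CD53, CD63, CD81, CD82, CD151, UPK1A, UPK1B, PRPH2 or ROM1. This gave 28 of the 31999 genes listed. Of the 32 names the rule covers, TSPAN8, TSPAN16, TSPAN19 and UPK1B have no row in the table used here and were not analysed. CD9, the tetraspanin left out by the rule, is named below only for its place in the order.

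The study asked how loss of TMIGD2 changes the transcriptome of these cells. The table used for this question holds, for each gene, the authors' comparison of the hairpins and 1 mean level over the 6 libraries. It has no value for a single library or a single group. The comparison between shTMIGD2 and shCtrl was therefore not recomputed, and the levels below are means over libraries with and without the knockdown. For a gene that the knockdown changed, such a mean describes neither group. There is no spread between libraries and no read total, so the depth is unknown, no SD, interval or test goes with any level, and it cannot be told which neighbours in the order differ beyond the replicate error.

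Tetraspanins are small membrane proteins that cross the membrane repeatedly and expose a short and a large extracellular loop. They hardly signal on their own. They gather partners such as integrins, immunoglobulin-domain proteins and the sheddase ADAM10 into microdomains, and they steer the traffic of these partners and the loading of extracellular vesicles. In blood cells several members serve as surface markers of leukocytes, platelets or exosomes.

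The large loop carries the family's signature, a Cys-Cys-Gly (CCG) motif, and further cysteines that pair into disulfide bonds. All 28 members held the CCG motif in the protein encoded by the canonical GENCODE transcript, and the proteins ranged from 204 residues (TSPAN13) to 355 residues (TSPAN10). From the motif, its own pair included, to the last hydrophobic stretch, 4 members had 4 cysteines, 18 had 6 and 6 had 8. The members with 4 were CD53, CD81, TSPAN2 and TSPAN32. The members with 8 were TSPAN5, TSPAN10, TSPAN14, TSPAN15, TSPAN17 and TSPAN33, which are the 6 proteins known as TspanC8, the regulators of ADAM10. The coding sequence of this stretch, not of the whole large loop, is given for 4 members that were abundant here and that show the loop classes. Each cysteine codon is in capitals and all other codons are in lower case. By cysteines in this stretch CD53 has the compact form, CD63 and CD82 the intermediate form and TSPAN33 the TspanC8 form.

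CD53: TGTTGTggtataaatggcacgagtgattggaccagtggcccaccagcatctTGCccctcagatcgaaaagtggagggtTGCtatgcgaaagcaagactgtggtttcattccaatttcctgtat

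CD63: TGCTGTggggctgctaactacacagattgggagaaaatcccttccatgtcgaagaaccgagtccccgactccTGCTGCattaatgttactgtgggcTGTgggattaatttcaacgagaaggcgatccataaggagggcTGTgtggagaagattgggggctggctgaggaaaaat

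CD82: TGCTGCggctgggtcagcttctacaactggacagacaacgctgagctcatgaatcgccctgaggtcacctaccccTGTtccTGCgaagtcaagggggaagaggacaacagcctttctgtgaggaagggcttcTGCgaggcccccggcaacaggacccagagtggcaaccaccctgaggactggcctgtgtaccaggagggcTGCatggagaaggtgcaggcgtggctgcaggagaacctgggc

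TSPAN33: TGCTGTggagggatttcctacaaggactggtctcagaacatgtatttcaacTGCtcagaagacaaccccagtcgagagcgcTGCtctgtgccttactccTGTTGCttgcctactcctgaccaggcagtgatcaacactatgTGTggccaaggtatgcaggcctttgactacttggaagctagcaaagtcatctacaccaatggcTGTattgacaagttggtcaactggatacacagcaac

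These stretches are spliced coding sequence from GENCODE 44 on GRCh38, written 5′ to 3′ on the strand of the gene. The CD53 stretch encodes residues 144 to 184 and lies in exons 6 and 7 on the plus strand of chromosome 1, from 110896659 to 110897856. For CD63 it encodes residues 145 to 202 from exons 6 and 7 of the minus strand, on chromosome 12 between 55725858 and 55726255. The CD82 stretch, residues 149 to 229, comes from exons 8 and 9 on the plus strand of chromosome 11, from 44618168 to 44618684. The stretch of TSPAN33, residues 156 to 235, comes from exons 6 and 7 on the plus strand of chromosome 7, from 129166784 to 129167515. All 4 begin with the paired cysteine codons of the CCG motif. CD53 has 2 more over 123 bases, CD63 has 4 more over 174, CD82 has 4 more over 243 and TSPAN33 has 6 more over 240.

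HEL cells carried transcripts of most members that have a row. Of the 28 members, 22 had a mean level of at least 1 CPM (CPM, counts scaled to the library total, so that this level is a log2 CPM of 0), which is 78.6%, compared with 69.1% of the 16341 protein-coding genes with a matched gene model and 43.8% of all genes listed. Members were ordered and set against other genes per length, as log2 CPM minus the log2 of the combined exon length in kilobases, while counts at 1 CPM and the marker check use log2 CPM uncorrected for length. On the scale per length the median was 2.17 for the members and 1.13 for protein-coding genes. Among genes of at least 1 CPM the medians were closer, at 2.89 for the members and 2.57 for protein-coding genes. The 4 names with no row are outside these counts, and the difference between the shares was not tested. The plot of all 28 levels gives the order.

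**Figure D1:**
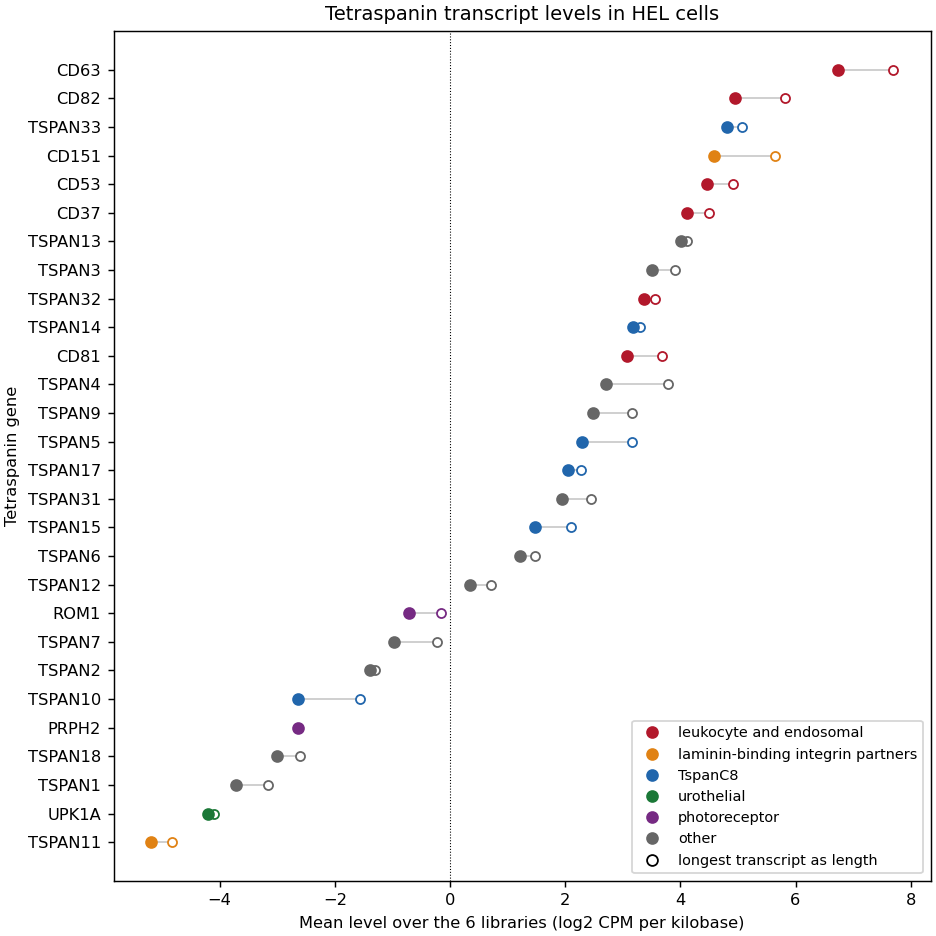
Mean level of each tetraspanin gene over the 6 libraries, in log2 CPM per kilobase, ordered from highest to lowest and coloured by role. Filled points use the combined exon length and open points the longest transcript. CD63 stands at 6.73, the members from CD82 to TSPAN12 fall from 4.94 to 0.35, and TSPAN11 is plotted at -5.20. The point of UPK1A comes from a value at the floor of the table and is only an upper limit, so its place beside TSPAN11 is not an order of levels.

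CD63, a tetraspanin of late endosomes, lysosomes and secretory granules and a common exosome marker, had the highest level of the family. Its authors' mean was 256.4 CPM, and its level per length was 6.73 log2 CPM per kilobase, above 98.1% of protein-coding genes. This was 3.45 times the level of CD82, the next member, but per coding length CD63 had 1.82 times the level of TSPAN14, then the next. CD63 alone made up 33.5% of the CPM per kilobase summed over the family, and the 6 highest members together 72.0%. CD63 stayed the highest member with the longest transcript or the coding length in place of the combined exons, with 39.9% and 21.6% of the sum. The gene lies on the minus strand of chromosome 12 (GRCh38, 55725323 to 55729707), and 5.0% of its exon bases are shared with the antisense gene CD63-AS1.

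The other leukocyte and endosomal members all reached 1 CPM, as did 69.1% of protein-coding genes. With CD63 this group of 6 held 61.5% of the summed level per length, and CD63 alone made up 33.5%. Per coding length CD63 made up 21.6%, so the share of the group depends on the length used. CD82, which binds integrins and restrains cell motility, stood at 4.94 log2 CPM per kilobase (6.95 log2 CPM). The leukocyte tetraspanins CD53 and CD37 were close to each other, at 4.46 and 4.11 log2 CPM per kilobase. TSPAN32, a member largely restricted to blood cells, had 3.36. CD81, the partner of IGSF8 and PTGFRN in many cells, had 3.07. By rank per length CD81 was 11 and TSPAN32 was 9, and the other 4 were among the 6 highest. Without correction for length CD37 had 6.16, CD81 6.06, CD53 5.57 and TSPAN32 5.29 log2 CPM, so the order among these 4 depends on the length used.

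The 6 genes from CD82 to TSPAN13 in the order spanned less than 1 log2 unit, from 4.94 to 4.01. They belong to different branches of the family. CD82, CD53 and CD37 were placed in the leukocyte and endosomal group, TSPAN33 is a TspanC8 and CD151 an integrin partner. TSPAN13 is one of the members with a short protein. TSPAN3, a widely expressed member, followed at 3.51 log2 CPM per kilobase (6.58 log2 CPM).

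All 6 TspanC8 genes, whose proteins bring ADAM10 out of the endoplasmic reticulum and set which substrates it cuts, were listed. Of these, 5 reached 1 CPM, compared with 69.1% of protein-coding genes. TSPAN33 had 4.81 log2 CPM per kilobase (6.63 log2 CPM) and accounted for 57.3% of the level per length summed over the 6. Per coding length its share was 30.0% and that of TSPAN14 was 50.5%. TSPAN33 is also known as Penumbra and was described in erythroid progenitors. TSPAN14 followed at 3.17, TSPAN5 at 2.29, TSPAN17 at 2.04 and TSPAN15 at 1.47 log2 CPM per kilobase. TSPAN10, a member known from pigment cells, was the exception, at -2.64 log2 CPM per kilobase (-0.34 log2 CPM). The place of TSPAN14 depends on the length used, because its annotated exons add up to 17790 bases while its coding sequence has 810. Without correction for length TSPAN14 had 7.32 log2 CPM (159.6 CPM), and per coding length it ranked 2 in the family. ADAM10 itself stood at 4.15 log2 CPM per kilobase (8.15 log2 CPM), and ADAM17, the related sheddase that TspanC8 proteins do not regulate, at 1.63.

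CD151, which binds laminin-binding integrins tightly, had 4.58 log2 CPM per kilobase (6.54 log2 CPM). TSPAN11, its closest relative with 56.1% identical residues, had -5.20 (-2.36 log2 CPM, 1.40 above the lowest value in the table). Among the integrin chains that CD151 is known to bind, ITGA3 stood at -5.58, ITGA6 at -1.28 and ITGB4 at -1.22 log2 CPM per kilobase. Without correction for length ITGA6 (1.46 log2 CPM) and ITGB4 (1.54) were above 1 CPM and ITGA3 (-2.28) was below. ITGB1, the beta chain that ITGA3, ITGA6 and other alpha chains pair with, was at 4.63 and ITGA4 at 6.32. Of the exon bases of CD151, 6.6% overlap POLR2L on the opposite strand, a gene at 6.51 log2 CPM.

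The members that mark specialised epithelia or the retina were low. UPK1A, a component of the urothelial plaque, had -3.76 log2 CPM, only 0.0010 above the lowest value in the table, a value near which (within 0.01) 2234 genes lie, so no signal beyond the floor of the scale was seen for it. Its plaque partner UPK2 was at -2.76 log2 CPM. PRPH2, which shapes the rim of photoreceptor discs, had -1.06 log2 CPM, below 1 CPM. ROM1, its partner in the retina, was just above at 0.28 log2 CPM. However, 30.1% of the exon bases of ROM1 overlap exons of EML3 on the opposite strand, a gene at 5.82 log2 CPM. The library kit keeps strand, but the strand setting used in counting is not given in the sources used here. Whether the overlap added reads of EML3 to the value of ROM1, or left out reads of ROM1, cannot be told. Exons of 15 members overlap another gene's exons, and for 5 of them (CD151, ROM1, TSPAN10, TSPAN31 and TSPAN32) that gene was at 1 CPM or more. For TSPAN7, 23.0% of the exon bases overlap ENSG00000250349, a protein-coding gene on the same strand with no level in the table used here. Whether this overlap changed the value of TSPAN7 cannot be told.

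The remaining 11 members have varied or less defined roles, and 9 of them reached 1 CPM, compared with 69.1% of protein-coding genes. TSPAN13 (4.01 log2 CPM per kilobase) and TSPAN3 (3.51) led, followed by TSPAN4 (2.71), known from migrasomes, and TSPAN9 (2.48), a member found on platelets. TSPAN31 had 1.94, and 26.1% of its exon bases overlap CDK4 on the opposite strand, a gene at 7.39 log2 CPM, so the same doubt on strand applies. TSPAN6 had 1.21 and TSPAN12, a coreceptor for norrin signalling in the retina, 0.35. TSPAN7, a neuronal member, had -0.97 and TSPAN2, known from oligodendrocytes, -1.39. TSPAN18, known from endothelium, had -3.00, and TSPAN1, an epithelial member, -3.72.

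Around the threshold, TSPAN7 (0.58 log2 CPM), TSPAN2 (0.38) and ROM1 (0.28) lay just above 1 CPM, and TSPAN10 (-0.34), TSPAN18 (-0.41) and PRPH2 (-1.06) just below. With TSPAN11, TSPAN1 and UPK1A these made up the 6 members below 1 CPM, which together contributed 0.190% of the summed level per length. CD9, with 1.57 log2 CPM and -0.97 log2 CPM per kilobase, would take rank 21 among the members. The family fell into a larger part near or above the middle of the protein-coding genes and a smaller part among the genes hardly read, as the histogram of protein-coding genes shows.

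**Figure D2:**
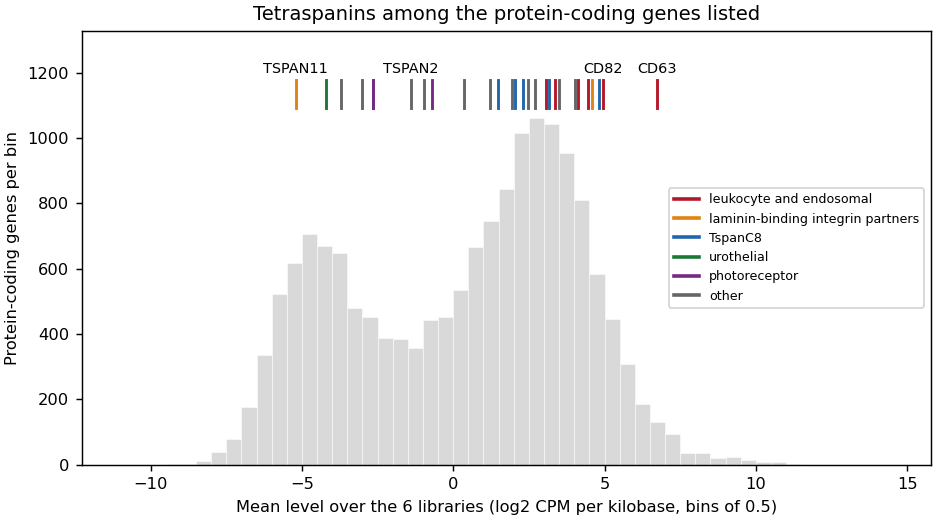
Number of protein-coding genes per bin of mean level (log2 CPM per kilobase, bins of 0.5, grey bars), with 1 coloured tick per tetraspanin gene above. The genes form a broad high peak and a low one. CD63 (6.73) stands to the right of every other tetraspanin, while TSPAN2 (-1.39) and the members down to TSPAN11 (-5.20) lie between the peaks or in the low one.

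The members were next compared by sequence, which the choice by name did not use. Over the 378 pairs of proteins the median identity was 22.6% of aligned columns and the lowest 13.2%, and 9 pairs reached 40%. The closest pair was TSPAN5 and TSPAN17 at 64.7%, and these had similar levels, 2.29 and 2.04 log2 CPM per kilobase. TSPAN4 and TSPAN9 (55.6% identity) were also near each other, at 2.71 and 2.48. Other close pairs differed more on this scale. TSPAN6 exceeded TSPAN7 (58.7% identity) by 2.19 log2 units per length, TSPAN13 exceeded TSPAN31 (57.7%) by 2.07, CD81 exceeded TSPAN2 (40.8%) by 4.46, and CD151 exceeded TSPAN11 by 9.77. In all, 6 of the 9 pairs differed by more than 1 log2 unit on this scale. For some pairs the contrast depends on the length used. Without correction for length TSPAN13 had 5.01 and TSPAN31 4.33 log2 CPM, while TSPAN5 had 5.18 and TSPAN17 4.43. TSPAN6 (3.39) and TSPAN7 (0.58) stayed apart, as did CD81 (6.06) and TSPAN2 (0.38), and CD151 (6.54) and TSPAN11 (-2.36). The doubt on strand for TSPAN31 applies here too, as does the overlap on the same strand for TSPAN7.

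The 15 pairs within the TspanC8 group had a median identity of 30.9%, from 23.9% to 64.7%. Pairs of a TspanC8 with another member had a median of 21.7% and reached at most 29.8%. TSPAN15 and TSPAN10 stood apart from the other 4 in the identity plot. By loop class, all 4 members with 4 loop cysteines reached 1 CPM, as did 13 of the 18 with 6 and 5 of the 6 with 8. Of the protein-coding genes 69.1% did, and with so few members the classes cannot be told apart. The median levels were 3.22, 1.57 and 2.17 log2 CPM per kilobase, within a range of several log2 units in each class. The stretch from the motif to the hydrophobic window, a part of the large loop, had 41 to 51 residues with 4 cysteines. It had 40 to 96 with 6 and 79 to 87 with 8. The 40, of TSPAN13, is the least length the method allows.

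**Figure D3:**
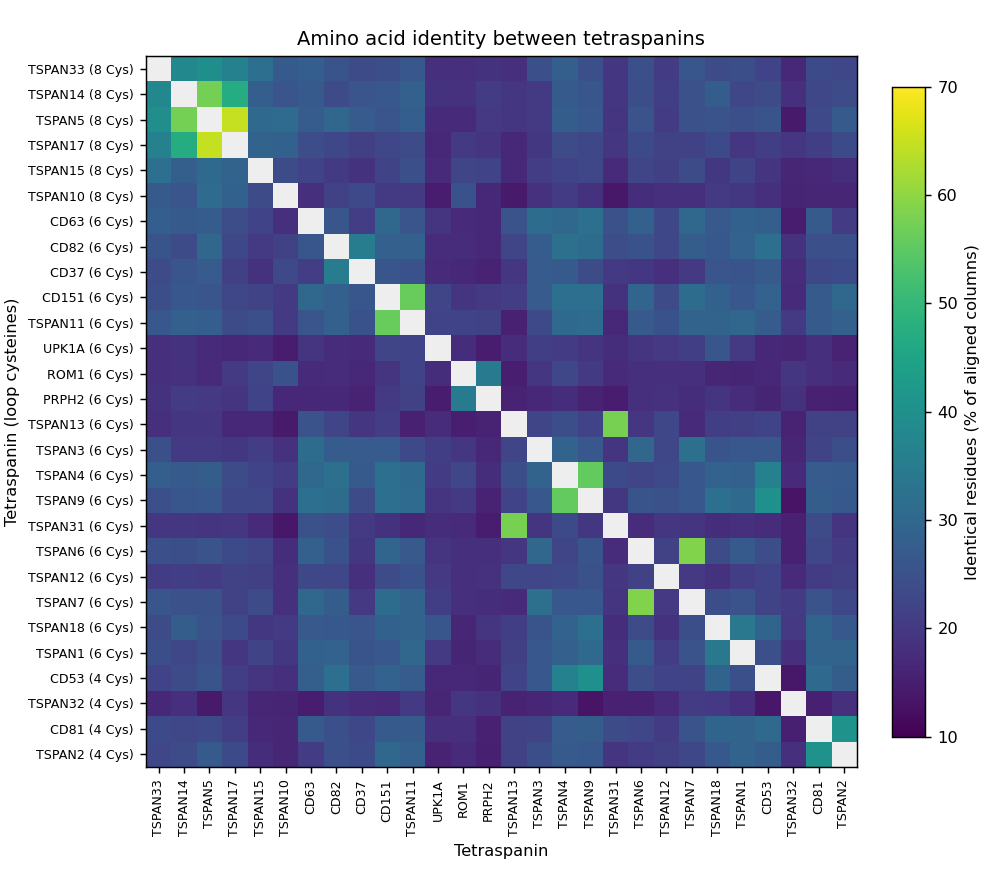
Identical residues between each pair of tetraspanin proteins, in percent of aligned columns (colour scale), with members ordered by their number of loop cysteines. The TspanC8 proteins TSPAN33, TSPAN14, TSPAN5 and TSPAN17 form the bright block at the top left, up to 64.7%, and the paired bright cells elsewhere are close relatives such as CD151 and TSPAN11 (56.1%).

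Tetraspanin genes lie in pairs on chromosome 11, which holds 7 of the 28. CD151 and TSPAN4 are 3.0 kb apart, with 1 listed protein-coding gene, POLR2L, reaching into the gap, and had 4.58 and 2.71 log2 CPM per kilobase. TSPAN32 and CD81 are 58.0 kb apart with no listed protein-coding gene between them, at 3.36 and 3.07. CD82 and TSPAN18 are 106.1 kb apart, again with no listed protein-coding gene between them, and were far from each other in level, at 4.94 and -3.00.

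Among 19 genes listed as partners or cargo of tetraspanins, 17 had a row and 13 of them reached 1 CPM. Of the protein-coding genes 69.1% did, so the count does not set the partners apart. For the CD81 partners, IGSF8 had 2.90 and PTGFRN 2.69 log2 CPM per kilobase, near CD81 itself at 3.07. Without correction for length IGSF8 had 4.28, PTGFRN 5.39 and CD81 6.06 log2 CPM, so the nearness depends on the length used. The vesicle genes SDCBP (syntenin), PDCD6IP (ALIX) and TSG101 had 4.83, 4.38 and 3.78. KIT, the stem cell factor receptor, had 4.32 and CD4 3.50. EPCAM, an epithelial partner, was at -3.85, and CLDN1 and UPK3A had no row in the table used here.

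The line's identity was checked against lineage markers. Of 10 erythroid and megakaryocytic markers, 9 had a row and all 9 exceeded 1 CPM, from 2.46 log2 CPM for HBZ to 10.54 for ITGA2B. None of the epithelial, fibroblast, urothelial and photoreceptor markers with a row reached 1 CPM. The listed T cell marker CD2 (2.95 log2 CPM) and the listed B cell marker CD79A (2.32 log2 CPM) did, while CD3E, CD3D and MS4A1 have no row in the table used here. Their part in the levels of the leukocyte members was not tested.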

How the data were processed

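Poly(A) RNA of 3 shCtrl and 3 shTMIGD2 HEL libraries was sequenced after a directional library protocol, and samples were grouped by their labels. Per the study's methods, reads were aligned to hg38 with STAR (2.6.1b) and fragments per gene were counted with HTSeq (0.6.1) on a refSeq annotation. The authors describe testing with DESeq2, but the deposited table is headed as edgeR output by the authors, whose version, normalization and filter settings are not given in the sources used here. The level used is the deposited log2 CPM, the authors' mean over the 6 libraries. The fold change, F statistic, p-value and adjusted p-value of the authors' comparison were not used. The planned test between groups needed counts per library, which the deposited table does not give, so it was not run. The prior count that edgeR adds to such means would keep genes without reads at a floor, -3.76 here.

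Members and lists were chosen with earlier results of these data known, and 1 gene of the partner and marker lists is not reported here. All members are named, with fuller values for the 10 highest, for those nearest 1 CPM and for the role groups. Gene models, coding sequences and exon overlaps come from GENCODE 44 (GRCh38, the build of the alignment); by symbol, 22987 listed names found a model, all 28 members among them. Proteins were translated from canonical transcripts and aligned globally with Biopython 1.88 (Python 3.11.15) under BLOSUM62, gap opening 11 and extension 1. Cysteines were counted from the CCG motif to the most hydrophobic window of 21 residues at least 40 residues on. Length, loop and alignment functions were tested on simulated input. Figures were drawn with matplotlib 3.10.9.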

Additional observations from a re-analysis of the deposited data

How the results depend on the processing

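The table has no values per library, so leaving out each replicate, DESeq2, other size factors and no filter were not run. No paired analysis was possible because the table gives 1 mean over all libraries. The count of members at 1 CPM or more, 22, was 24 at 0.5 CPM, 19 at 2 CPM, 17 at 10 CPM and 19 at 1 CPM per kilobase. Of the 10 highest members per length, 8 remained among the 10 highest with the longest transcript and 8 with the coding length. The longest transcript raised levels by a median of 0.43 log2 units and the coding length by 2.32, most for TSPAN14 (4.46), whose annotated exons are mostly noncoding. Of the members, 16 lay at or above percentile 75 of all genes listed, but 8 at or above that of protein-coding genes and 9 per kilobase among protein-coding genes, since low noncoding genes then leave the ranking. Pairs of at least 40% identity numbered 9, 10 under BLOSUM45 and 17 with local alignment, which leaves unaligned ends out. Over a fixed 120 residues from the CCG motif 9 members had 8 cysteines, against 6 up to the last hydrophobic stretch. The members changed too: CD63 and CD82 then had 8, while the TspanC8 proteins TSPAN5 and TSPAN17 had 9. The match of the class with 8 to TspanC8 thus depends on the stretch counted. Unknown depth limits the members below 1 CPM most.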
